A study of Mus musculus with 2 samples.

Results

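The Pth1r and Scube1 stromal cells were 881 of the 7908 cell barcodes from the mouse endometrium on day 3 of pregnancy, 783 of 5783 in the Erbb3 f/f library and 98 of 2125 in the Erbb3 d/d library. They were chosen by measured values. A barcode was taken as stromal where mitochondrial genes gave at most 10% of its UMIs (unique molecular identifiers, each standing for 1 captured molecule) and where the summed UMIs of Col1a1, Col1a2, Col3a1, Pdgfra and Hoxd10 reached at least 2 and were more than 2 times each of 4 sums of epithelial, mesothelial, endothelial and immune genes. This left 1858 f/f and 481 d/d stromal cells. Of these, a cell was kept where Col7a1, Pth1r, Scube1, Prdm1, Apcdd1 and Col26a1 together gave at least 1 UMI and more UMIs than Col6a4, Adam12, Ripor2, Nid1, Cacna2d1 and Hsd11b2 together. Stromal cells with the opposite order, 659 in f/f and 262 in d/d, are called Col6a4 and Adam12 cells below and serve for comparison. The remaining 416 and 121 stromal cells had equal sums or no UMI of either set.

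The control females carried Erbb3 f/f and the others Erbb3 d/d, described by the submitters as a deletion of Erbb3 in the stroma. The Cre driver, the strain, the age and the number of mice behind each library are not given in the sources used here. Each genotype was 1 library, so a difference below is one between 2 preparations, and the spread between animals is unknown. No test was run for that reason. Intervals in parentheses after a value are 95% intervals that cover counting error only. Levels are in CPM, the UMIs of a gene per 1000000 UMIs of the cells named, and log2 ratios compare CPM.

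The Erbb3 transcript itself had 17 UMIs (21.6 CPM) in the f/f cells and 0 in the d/d cells. A limit of 3 counts in d/d corresponds to 30.6 CPM, above the f/f level, so a loss was not detectable at this depth. Gated epithelial cells held 89.5 CPM in f/f and 53.6 CPM in d/d. The f/f cells carried 788086 UMIs in all and the d/d cells 97895, with medians of 801 and 735 UMIs and of 687 and 631.5 genes per cell. The deeper f/f sum gives the more precise level. Their median mitochondrial shares were 1.04% and 1.40%, against 1.84% and 3.68% in the Col6a4 and Adam12 cells. No whole barcode was shared by the libraries. The first 16 bases alone were shared by 158 barcodes, among them those of 18 selected f/f cells and 9 selected d/d cells, of which 0 were selected in both libraries.

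The genes that define these cells belong to several signalling systems of connective tissue. Pth1r is the receptor shared by parathyroid hormone and parathyroid hormone-related protein, and couples through G proteins to adenylyl cyclase. Scube1 encodes a secreted, membrane-associated protein with EGF-like repeats and a CUB domain, of a family known for helping Hedgehog ligands leave the cells that make them. Apcdd1 encodes a membrane-bound inhibitor of Wnt signalling, and Prdm1 a transcriptional repressor. Col7a1 encodes the chain of the anchoring fibrils beneath epithelia, and Col26a1 a minor collagen. In the pregnant uterus the stroma lies under the luminal epithelium, receives Indian hedgehog from it under progesterone, and later transforms into decidua.

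The 250 bases upstream of a start site are printed for genes that name these cells and for genes that differed between the libraries in them. Sequences come from RefSeq on GRCm38.p6, 5′ to 3′ on the gene's strand. Of 16 genes looked up, 13 had an entry. Capitals mark exact matches, on either strand, to the GLI core CCACCCA, the TCF/LEF core ATCAAAG and the GC box GGGCGG. The windows of Scube1, Col7a1 and Cxcl14 overlap no annotated gene in GENCODE M21. The Pth1r window is that of 1 of its 3 annotated starts and lies, without touching an exon, within the spans of Pth1r and Myl3, and the Ptch1 window lies in the span of Ptch1, also outside annotated exons.
Pth1r, chr9:110743687-110743936, minus strand: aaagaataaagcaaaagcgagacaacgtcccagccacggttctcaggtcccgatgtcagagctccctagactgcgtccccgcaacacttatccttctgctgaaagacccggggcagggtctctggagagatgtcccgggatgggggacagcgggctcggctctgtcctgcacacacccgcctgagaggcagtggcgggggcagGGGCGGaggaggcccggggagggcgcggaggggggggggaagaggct
Scube1, chr15:83725040-83725289, minus strand: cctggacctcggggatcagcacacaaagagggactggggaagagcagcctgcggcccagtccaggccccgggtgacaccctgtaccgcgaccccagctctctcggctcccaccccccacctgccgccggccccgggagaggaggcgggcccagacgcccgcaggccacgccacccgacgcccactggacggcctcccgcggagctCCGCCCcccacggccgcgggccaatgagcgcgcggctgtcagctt
Col7a1, chr9:108953336-108953585, plus strand: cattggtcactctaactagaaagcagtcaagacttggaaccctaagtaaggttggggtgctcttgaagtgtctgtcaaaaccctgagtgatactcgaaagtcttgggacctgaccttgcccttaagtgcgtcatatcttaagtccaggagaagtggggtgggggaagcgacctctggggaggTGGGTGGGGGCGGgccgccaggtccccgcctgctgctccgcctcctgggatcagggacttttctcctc
Ptch1, chr13:63565736-63565985, minus strand: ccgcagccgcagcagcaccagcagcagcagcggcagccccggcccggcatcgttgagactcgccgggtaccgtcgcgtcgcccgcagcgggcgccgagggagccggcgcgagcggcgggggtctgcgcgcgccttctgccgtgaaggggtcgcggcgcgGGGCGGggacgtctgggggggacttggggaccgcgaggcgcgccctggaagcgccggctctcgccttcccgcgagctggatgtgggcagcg
Cxcl14, chr13:56296552-56296801, minus strand: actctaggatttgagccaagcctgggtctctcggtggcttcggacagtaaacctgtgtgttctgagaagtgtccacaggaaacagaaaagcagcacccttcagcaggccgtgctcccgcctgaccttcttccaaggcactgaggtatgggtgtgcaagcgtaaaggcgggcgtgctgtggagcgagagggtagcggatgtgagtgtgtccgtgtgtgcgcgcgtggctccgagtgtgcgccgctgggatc
The printed windows of Pth1r, Scube1, Col7a1 and Ptch1 each held 1 GC box, and the windows at the other starts of Pth1r held 4 and 0. That motif was in 32.7% of all 32817 promoter windows of the same length. Col7a1 alone of these held a GLI core, which was in 8.11% of all windows and here directly adjoined the GC box without sharing a base. No TCF/LEF core, found in 3.21% of all windows, was in these 5. A match describes letters and is no evidence of binding.

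The label was checked by choosing the cells anew without each gate gene in turn, so that a gene's own UMIs did not select the cells it was measured in. In the f/f library all 6 genes of the Pth1r set were then higher in the Pth1r and Scube1 cells than in the Col6a4 and Adam12 cells, by 1.25 to 1.60 times, and all 6 intervals lay above 0. In the d/d library 5 of 6 were higher and 1 interval, that of Col7a1, lay above 0. Each of the 6 genes was therefore higher in the f/f cells chosen without it, by a modest margin, and in d/d this was measurable for 1 gene. As log2 ratios the f/f margins were 0.32 to 0.67, against a median of 0.03 over 5553 genes. Single genes outside both sets lay as far from 0, such as Mgp at 0.67 and Col4a1 at -0.54. A margin of this size is thus not particular to these 6 genes.

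Among the matrix genes, held-out Col7a1 stood at 723 CPM in the Pth1r and Scube1 cells against 512 CPM in the Col6a4 and Adam12 cells of f/f, and at 1028 against 488 CPM in d/d. The log2 ratios were 0.50 (0.31 to 0.69) and 1.07 (0.64 to 1.50), so this gene separated the classes in both libraries. Held-out Col26a1 was at 237 against 164 CPM in f/f and 211 against 167 CPM in d/d, with log2 ratios of 0.53 (0.20 to 0.86) and 0.34 (-0.53 to 1.15).

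The receptor gene Pth1r, held out, was at 879 against 660 CPM in f/f, a log2 ratio of 0.41 (0.24 to 0.58), and at 407 against 474 CPM in d/d, a ratio of -0.22 (-0.89 to 0.40). In d/d the cells chosen by the other genes thus had no measurable excess of Pth1r. A Pth1r UMI was found in 50.0% of the held-out f/f cells and in 24.6% of the d/d cells. Gated epithelial cells, at median depths of 975 and 929 UMIs, had one in 1.78% and 0.817%, so the stromal shares lie above that background.

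Held-out Scube1 was at 357 against 258 CPM in f/f and 457 against 381 CPM in d/d, with log2 ratios of 0.47 (0.20 to 0.74) and 0.26 (-0.33 to 0.82). Held-out Apcdd1 was at 280 against 176 CPM in f/f, the largest f/f ratio of the 6 at 0.67 (0.36 to 0.99), and at 144 against 124 CPM in d/d, a ratio of 0.22 (-0.82 to 1.17). Held-out Prdm1 was at 649 against 519 CPM in f/f, 0.32 (0.13 to 0.52), and at 565 against 507 CPM in d/d, 0.16 (-0.38 to 0.66). Wnt inhibitor, Hedgehog-associated and repressor genes thus followed the same order in f/f, with intervals in d/d that included 0.

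**Figure D1:**
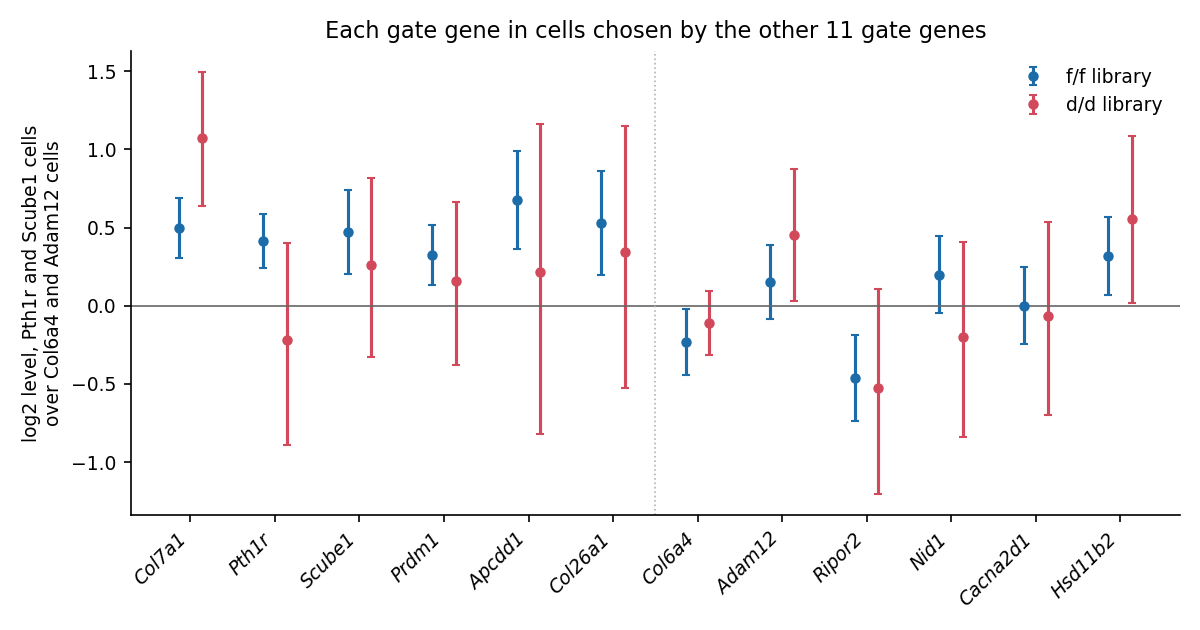
Log2 ratio of the level (CPM) of each gate gene in the Pth1r and Scube1 cells over the Col6a4 and Adam12 cells, with cells chosen by the other 11 genes; points are the f/f (blue) and d/d (red) libraries, bars 95% counting intervals, and the dotted line parts the 2 gate sets. All 6 blue points on the left lie above 0, between 0.32 and 0.67, and the points on the right scatter on both sides of 0.

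The genes used against these cells did not form a mirror image. When held out in f/f, Ripor2 at -0.46 (-0.74 to -0.19) and Col6a4 at -0.23 (-0.44 to -0.02) were lower in the Pth1r and Scube1 cells, while Hsd11b2, which inactivates glucocorticoids, was higher at 0.31 (0.07 to 0.57). Adam12 at 0.15, Nid1 at 0.20 and Cacna2d1 at 0.00 had intervals that included 0. In d/d, Adam12 at 0.45 (0.03 to 0.87) and Hsd11b2 at 0.56 (0.02 to 1.08) were higher, and the other 4 intervals included 0. Asking for a lead of at least 3 UMIs left, with all 12 genes, 323 f/f and 30 d/d cells. The held-out ratios of the Pth1r set then ran from 0.38 to 0.89 in f/f and from 0.57 to 2.17 in d/d, where that of Pth1r turned to 0.81 (-0.09 to 1.62), and the f/f interval of Scube1 then included 0 (-0.02 to 0.77). Of the opposing set Ripor2 was at -1.07 and -1.23, while Hsd11b2 was at 0.49 (0.12 to 0.88) and 0.61 (-0.22 to 1.40), and Nid1 in f/f at 0.33 (-0.04 to 0.72).

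The gate was shallow for single cells. In f/f, 72.0% of the selected cells had a Pth1r-set sum of 3 or more UMIs, and 72.4% had in d/d. At least 2 of the 6 genes were seen in 83.0% and 79.6% of them. A lead of a single UMI chose 268 of the 783 f/f cells and 42 of the 98 d/d cells. Those cells had Pth1r-set levels of 2558 and 3384 CPM, and cells just outside, with equal sums of 1 or more, had 2292 and 3006 CPM. All cells with a lead of 2 or more stood at 4865 and 5355 CPM.

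The share of the stroma that these cells made up was then compared between genotypes. They were 42.1% of gated stromal cells in f/f (783 of 1858, 39.9 to 44.4%) and 20.4% in d/d (98 of 481, 16.9 to 24.3%), which is -21.8 points (-26.0 to -17.3) for d/d minus f/f. The Col6a4 and Adam12 cells made up 35.5% and 54.5%. After every cell had been thinned to 500 UMIs the selected shares were 38.1% and 19.4%, and in 4 bands of depth the f/f share ran from 39.8 to 43.3% and the d/d share from 16.1 to 27.1%, with d/d lower in each band.

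This share reads the relative levels of 12 genes, and 1 of them carried much of the difference. Col6a4, which encodes a collagen VI chain, stood at 493 CPM over all gated stromal cells in f/f (971 UMIs) and at 1907 CPM in d/d (942 UMIs), a log2 ratio of 1.95 (1.82 to 2.08). With Col6a4 left out of the gate the shares were 48.5% and 38.9%, a difference of -9.62 points, and -7.25 points when cells were thinned as well. Leaving out any other gate gene gave differences from -24.4 to -16.8. A smaller share in d/d therefore remained in each of these settings, at less than the size first given once Col6a4 was not read. No setting left out both Col6a4 and Pth1r, so a share free of both was not measured.

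**Figure D2:**
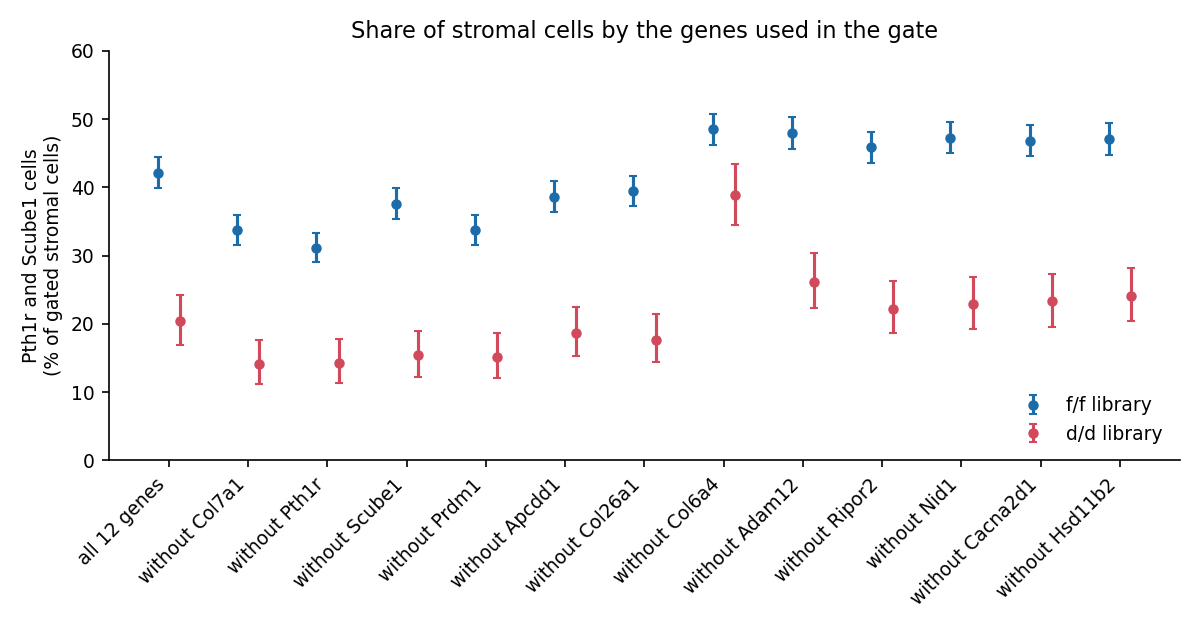
Share of gated stromal cells that were Pth1r and Scube1 cells (percent) in the f/f (blue) and d/d (red) libraries, with all 12 gate genes and with each left out; bars are 95% exact binomial intervals. Red lies below blue in each setting, and the gap is narrowest without Col6a4, at 48.5% against 38.9%.

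Levels over all gated stromal cells do not depend on the gate sets. There the summed Pth1r set was at 2451 CPM in f/f and 2022 CPM in d/d, a log2 ratio of -0.28 (-0.38 to -0.18). Without Pth1r the set was at -0.14 (-0.25 to -0.03), the same as the Col6a4 set without Col6a4, at -0.14 (-0.25 to -0.03). Pth1r had 1327 and 202 UMIs, 674 and 409 CPM, and a ratio of -0.72 (-0.94 to -0.51). Apcdd1 had 416 and 59 UMIs, 211 and 119 CPM, and a ratio of -0.82 (-1.24 to -0.43). These 2 genes and Prdm1, at -0.28 (-0.50 to -0.07), were lower in d/d. Scube1 was higher there, with 285 and 362 CPM and a ratio of 0.35 (0.10 to 0.59), and Col7a1 at -0.09 and Col26a1 at -0.17 had intervals that included 0. The genes that name the cells thus differed from each other in direction between the libraries. In thinned stromal cells, 63.8% of the f/f cells (61.3 to 66.2%) had at least 1 UMI of the Pth1r set. In d/d 57.0% had one (52.0 to 62.0%). The intervals overlapped, which does not show equal shares. For the Col6a4 set the shares were 63.2% and 74.2%, and without Col6a4 they were 55.3% and 56.8%.

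Within the held-out cells Pth1r and Apcdd1 were lower in d/d as well. Pth1r was at 879 CPM in f/f and 407 CPM in d/d, a log2 ratio of -1.11 (-1.75 to -0.53), and Apcdd1 at 280 and 144 CPM, a ratio of -0.96 (-1.89 to -0.15). Col7a1 was higher in d/d at 0.51 (0.12 to 0.88). Scube1 at 0.36, Prdm1 at -0.20 and Col26a1 at -0.17 had intervals that included 0. In the Col6a4 and Adam12 cells, held-out Pth1r had a ratio of -0.48 (-0.74 to -0.22) and Apcdd1 of -0.50 (-1.07 to 0.03). Whether these ratios differ between the classes was not tested. Asking for a lead of at least 3 UMIs put held-out Pth1r in the Pth1r and Scube1 cells at 1002 CPM in f/f and 747 CPM in d/d, on 15 d/d UMIs. Apcdd1 was then at 306 and 227 CPM, on 7 d/d UMIs. Both gaps between the libraries were narrower in that choice.

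Beyond the gate genes, few genes differed by 2-fold between the Pth1r and Scube1 cells and the Col6a4 and Adam12 cells. Of 5553 genes with at least 100 UMIs over both classes and libraries, 0 (0%) were at least 2-fold higher in them in both libraries, and 5 (0.09%) were at least 2-fold lower. These counts have no test behind them, since the cells were chosen from the same UMIs. The held-out genes of the Pth1r set were themselves 1.25 to 1.60 times higher in f/f, a difference that does not reach this rule. The low counts thus do not show that the classes are alike. The nearest gene was Nkd2, which encodes a feedback inhibitor of Wnt signalling. It had 154 UMIs against 77 in f/f and 18 against 22 in d/d, with log2 ratios of 0.99 and 1.22. Next by the same rule were Fkbp11 (0.90 and 1.51), Nlk (0.89 and 1.32), which encodes a kinase that acts on TCF/LEF proteins, and Adcy1 (0.81 and 2.51), an adenylyl cyclase. Enc1, Shd, Nfkb2, Slc6a2, Tgfbi, Ntm, Cxcl14 and E2f8 followed, with ratios from 0.73 to 0.89 in f/f and from 0.75 to 1.68 in d/d. Apart from Cxcl14 none of these 12 had more than 19 UMIs in the d/d cells.

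The 5 genes that were lower in both libraries were Myh11 (-1.85 and -2.01), Rasgrp2 (-2.06 and -1.57), Esam (-1.27 and -2.81), Rem1 (-1.17 and -1.43) and Mtss1 (-1.01 and -3.44). Myh11 encodes the smooth muscle myosin heavy chain, and Esam an adhesion molecule of endothelium that was over 5 times higher in a gated non-stromal class. Tpm2, a tropomyosin, was at -1.09 and -0.97, and the mitochondrial transcript mt-Nd6 at -0.99 and -1.01. The 18 smooth muscle and pericyte markers, which include Myh11, summed to 1041 CPM in the f/f cells against 1683 CPM in the Col6a4 and Adam12 cells. In d/d the sums were 1471 CPM (1241 to 1732) and 1703 CPM (1554 to 1864), with overlapping intervals. The abundant markers Smtn and Synpo2 had the opposite order in d/d. Smtn was at 368 against 477 CPM in f/f and 766 against 666 CPM in d/d. Synpo2 was at 294 against 329 CPM in f/f and 337 against 204 CPM in d/d. The d/d intervals overlapped for each gene, which does not show equal levels. Among these markers Lmod1, Myocd and Kcnj8 were at 0 in the f/f cells and 8 of 18, Tagln, Cnn1, Actg2, Myocd, Rgs5, Notch3, Kcnj8 and Abcc9, in the d/d cells. Their part in the contrast was not tested.

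The cells carried stromal markers that the gate did not use. These 22 markers, among them Dcn, Lum, Pdgfrb, Hand2, Pgr and Esr1, all had UMIs and summed to 10698 CPM in f/f and 10184 CPM in d/d. That was 109% and 119% of the level over all gated stromal cells, which include these cells, so a value near 100% was likely in advance. The sum was not taken in non-stromal classes. In the d/d cells Lum had 2 UMIs and Tcf21 had 1. Markers of other cells were present at lower levels. The 24 epithelial markers summed to 1336 CPM in f/f, 21.1% of their level in gated epithelial cells, and to 2309 CPM in d/d, 34.9% of it, with Cldn4 and Prss8 at 0 in d/d. Immune markers stood at 468 and 592 CPM, endothelial markers at 472 and 480 CPM, mesothelial markers at 212 and 317 CPM, adventitial-type fibroblast markers at 634 and 848 CPM, and glial and neuronal markers at 26.6 and 51.1 CPM. The summed epithelial markers were thus higher in d/d, with intervals that did not overlap (1257 to 1419 and 2017 to 2630 CPM). Their part in the differences that follow was not tested.

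Gene levels in the selected cells were then compared between the genotypes. Among 2626 genes, each with 100 or more UMIs in the libraries combined, 39 (1.49%) were at least 2-fold higher in d/d and 138 (5.26%) at least 2-fold lower. The intervals of all 39 higher and of 120 lower genes excluded 0. The genes were picked by the size of these same ratios, so the intervals lend them no separate support. The median log2 ratio was -0.09, the SD 0.55, and the median tested gene had 17 UMIs in d/d. The excess of lower genes was found with that UMI minimum, which is filled mostly by the deeper f/f library. With a minimum of 100 for the mean CPM of both libraries, a choice added after the values were seen, 106 of 3015 genes were higher and 99 lower. That mean gives each UMI of the shallower d/d library more weight, so neither filter settles whether lower genes were in excess.

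The same genes were then read in the neighbouring stroma. Of the 39 higher genes 9 were past 2-fold the same way in the Col6a4 and Adam12 cells and 0 the opposite way, with a median of 0.52. Of 131 lower genes tested in both classes, 29 were past 2-fold the same way and 0 the opposite way, with a median of -0.48. The classes come from the same 2 libraries, so these counts are no independent observation. The genes were also picked by their ratios in the selected cells, which favours smaller ratios in the other class.

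Cxcl14, which encodes a chemokine that is constitutively made by many epithelia and fibroblasts, had the highest ratio after Igha. It had 192 UMIs (244 CPM) in f/f and 89 UMIs (909 CPM) in d/d, a log2 ratio of 1.90 (1.52 to 2.27). The Col6a4 and Adam12 cells held 146 and 415 CPM, a ratio of 1.51 (1.12 to 1.90), and epithelial cells 26.7 and 104 CPM. The difference was thus found in each of these classes, and the level was highest in the d/d cells chosen here.

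Igha, the heavy chain of IgA, had 126 UMIs (160 CPM) in f/f and 62 UMIs (633 CPM) in d/d, a log2 ratio of 1.99 (1.52 to 2.44). Igkc, the kappa light chain, had 171 and 75 UMIs, 217 and 766 CPM, and a ratio of 1.82 (1.41 to 2.22). Immunoglobulin RNA is made by plasma cells, and it was found across classes. Igha was at 396 and 816 CPM in the Col6a4 and Adam12 cells and at 42.2 and 155 CPM in epithelial cells. Jchain, which links IgA chains, had 13 UMIs in 11 of the f/f cells and 12 UMIs in 4 of the d/d cells, while the B cell gene Ms4a1 was at 0 in both and Cd79a at 0 in d/d.

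Other genes in the upper 12 had fewer UMIs. Aldh1a2, which makes retinoic acid, had 127 UMIs (161 CPM) in f/f and 38 (388 CPM) in d/d, a log2 ratio of 1.27 (0.71 to 1.80). It was at 1.44 (1.05 to 1.82) in the Col6a4 and Adam12 cells, so its ratio was as large there. Lama5, a laminin chain of basement membranes, had 88 UMIs (112 CPM) and 29 UMIs (296 CPM), a ratio of 1.41 (0.75 to 2.03). Epithelial cells held more Lama5, 501 and 611 CPM. With cells thinned to 500 UMIs before they were chosen its ratio was -0.090. That value comes from a single random draw with 76 selected d/d cells, and no interval was taken. Hjurp, a centromere histone chaperone, had 323 UMIs (410 CPM) and 94 UMIs (960 CPM), a ratio of 1.23 (0.88 to 1.56). Oasl2, an interferon-induced gene, was at 1.30 (0.81 to 1.77), and H2-Q6, a class I histocompatibility gene that was over 5 times higher in another class, at 1.57 (0.93 to 2.17). The remaining genes were Cbx7 (1.51), Ppp1r14a (1.51), Parva (1.35) and Mtss2 (1.33).

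At the lower end counts in d/d were between 0 and 8, so the size of each ratio is loosely bounded. Adamts19, a secreted metalloprotease gene, had 136 UMIs (173 CPM) in f/f and 1 UMI (10.2 CPM) in d/d, a log2 ratio of -4.08 (-9.39 to -1.58). Choosing cells without Col6a4, which gave 187 d/d cells in place of 98, brought 7 UMIs and a ratio of -2.13 (-3.47 to -1.05). Ctla2a had 157 f/f UMIs (199 CPM) and no d/d UMI, and with the limit of 3 counts its ratio was at most -2.70. In the wider choice it had 5 UMIs in d/d and a ratio of -2.93 (-4.57 to -1.68). Cwc22, a splicing factor gene, had the most UMIs of this group, 525 (666 CPM) and 8 (81.7 CPM), and a ratio of -3.03 (-4.25 to -2.04).

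Col4a6, a basement membrane collagen chain, had 268 UMIs (340 CPM) in f/f and 5 UMIs (51.1 CPM) in d/d, a log2 ratio of -2.74 (-4.37 to -1.49), and -1.81 (-2.57 to -1.12) in the Col6a4 and Adam12 cells. Pdgfd, a platelet-derived growth factor, had 147 UMIs (187 CPM) and 4 UMIs (40.9 CPM), a ratio of -2.19 (-4.09 to -0.80), and Gnai1, a G protein subunit that inhibits adenylyl cyclase, 142 and 4 UMIs and -2.14 (-4.04 to -0.75). In each of these the interval lay below 0, on at most 5 d/d UMIs, but the genes were picked for their low ratios. Sgk3, a kinase gene, had 101 UMIs and 1 UMI, a ratio of -3.65 (-8.97 to -1.14). Nt5dc3 had 108 and 2 UMIs and -2.75 (-5.81 to -0.86), Cpxm2 142 and 3 UMIs and -2.56 (-4.85 to -0.98), and Gatm, an enzyme of creatine synthesis, 141 and 4 UMIs and -2.13 (-4.03 to -0.74). Lrp2, an endocytic receptor, had 165 and 2 UMIs and -3.36 (-6.41 to -1.48). It was over 5 times higher in epithelial cells, where it stood at 1242 and 163 CPM, so its level here moved with theirs. The wider choice brought ratios of -2.23 for Sgk3, -1.64 for Nt5dc3, -2.08 for Col4a6 and -1.26 for Gatm, all less extreme, while Lrp2 was at -3.39 and Cpxm2 at -2.52. Among the higher genes it brought Igkc to 1.21, Cbx7 to 0.87 and Parva to 0.88, and left Cxcl14 at 1.72 and Igha at 1.55.

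**Figure D3:**
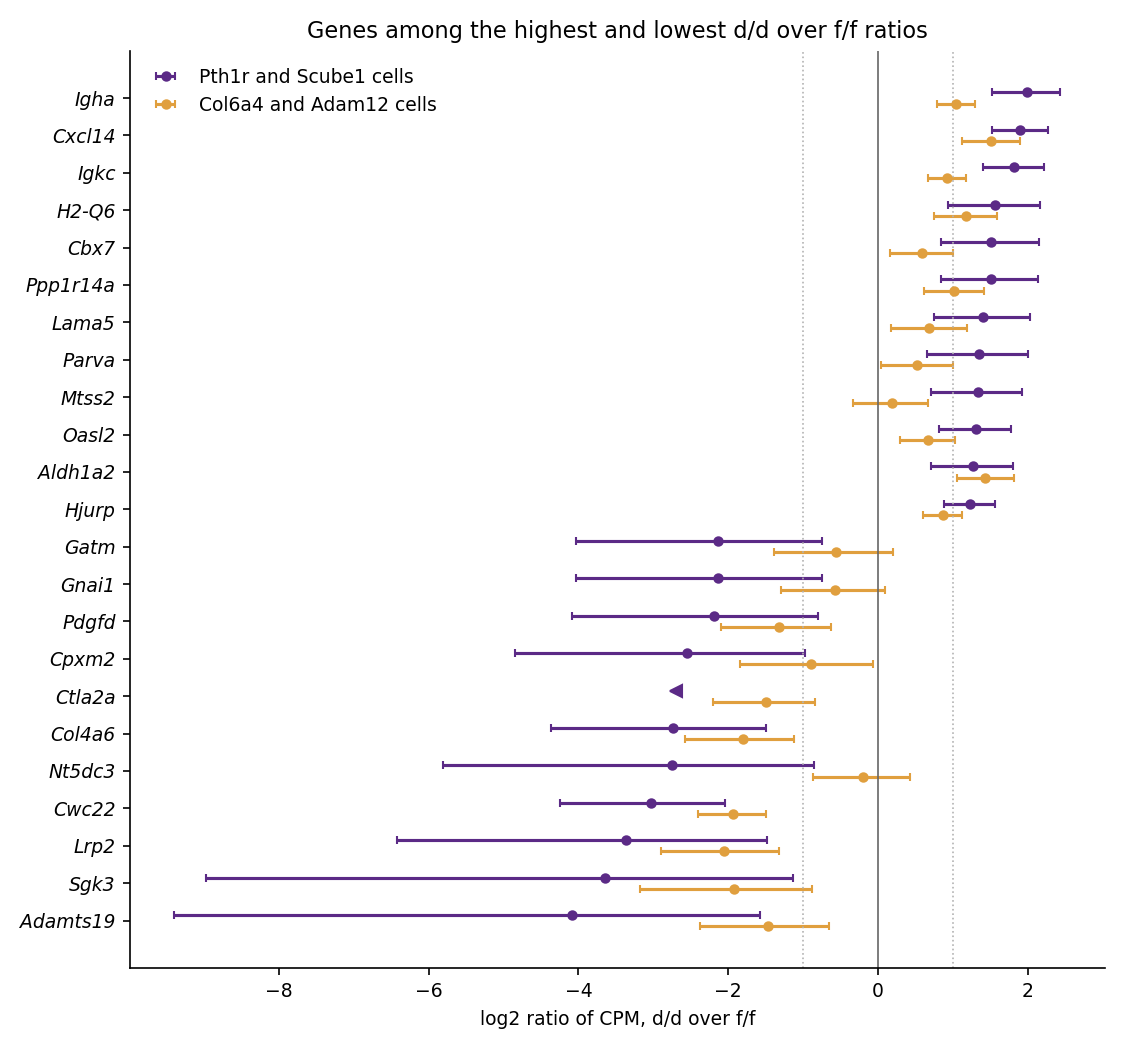
Log2 ratio of CPM, d/d over f/f, for 12 of the highest and 11 of the lowest genes with at least 100 UMIs, in the Pth1r and Scube1 cells (purple) and the Col6a4 and Adam12 cells (orange); bars are 95% counting intervals, the triangle an upper bound from 3 counts, and dotted lines 2-fold. Orange points lie on the same side of 0 as purple ones for all 23 genes, and most are nearer to 0. The genes were picked by their purple ratios, which favours orange points nearer to 0.

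The signalling systems of the gate genes were described next from gene lists, of which only members with at least 100 UMIs have a ratio. The list medians stand beside the median of -0.09 over all 2626 genes, and the share of genes past 2-fold is 1.49% upward and 5.26% downward. The lists are descriptions of these 2 libraries and carry no test.

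Of the Hedgehog list 3 genes are described here. Ptch1, the Hedgehog receptor and itself a target of the pathway, had 302 UMIs (383 CPM) in f/f and 20 UMIs (204 CPM) in d/d, a log2 ratio of -0.91 (-1.64 to -0.25). Gli1, a transcription factor induced by the pathway, had 271 UMIs (344 CPM) and 13 UMIs (133 CPM), a ratio of -1.37 (-2.30 to -0.57). Nr2f2, the COUP-TFII factor that acts downstream of Indian hedgehog in the stroma, had 368 UMIs (467 CPM) and 24 UMIs (245 CPM), a ratio of -0.93 (-1.59 to -0.33). All 3 were thus lower in d/d. In the Col6a4 and Adam12 cells the same genes were at -1.10, -0.09 and -0.78. Gli1 had an interval there of -0.51 to 0.33, and with the wider choice without Col6a4 its ratio in the selected cells was -0.77 (-1.29 to -0.29). In that choice Nr2f2 was at -0.57 (-0.99 to -0.18) and Ptch1 at -0.85 (-1.36 to -0.37). With cells thinned to 500 UMIs the Nr2f2 ratio was -0.19, outside its counting interval.

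Of 52 Wnt genes, 11 were counted, 0 were 2-fold higher and 3 were 2-fold lower, with a median of -0.20. Lef1, a transcription factor of the pathway, had 553 UMIs (702 CPM) in f/f and 27 UMIs (276 CPM) in d/d, a log2 ratio of -1.35 (-1.96 to -0.79), and -1.47 (-1.91 to -1.06) in the Col6a4 and Adam12 cells. Tcf7l1 had 106 and 5 UMIs and a ratio of -1.40 (-3.05 to -0.13), which was -0.46 (-1.19 to 0.21) in the wider choice without Col6a4, and the secreted inhibitor Sfrp2 132 and 8 UMIs and -1.04 (-2.28 to -0.01). The ligand Wnt5a was at -0.88 (-1.78 to -0.10). The feedback genes Axin2 (-0.08), Nkd1 (-0.20), Nkd2 (-0.09) and Znrf3 (0.01) all had intervals that included 0, as did the co-receptor Lrp6 (-0.56). Those feedback genes had 13 to 18 UMIs in the d/d cells, too few to settle whether they differed along with the transcription factors. In the Col6a4 and Adam12 cells Nkd1 was lower in d/d, at -0.96 (-1.77 to -0.23). Znrf3 was higher there, at 0.51 (0.011 to 0.998), and Axin2 (0.007) and Nkd2 (-0.32) had intervals that included 0.

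Of 28 genes of parathyroid hormone receptor signalling besides Pth1r, 4 were counted and 0 were past 2-fold in either direction. The G protein subunits Gnas (-0.13) and Gnaq (-0.25), the adenylyl cyclase Adcy6 (-0.15) and the arrestin Arrb2 (-0.11) had a median of -0.14, and all 4 intervals included 0. Of 40 BMP, activin and TGF-beta genes, 6 were counted and 0 were past 2-fold, with a median of -0.16. The ligand Bmp7 had 240 UMIs (305 CPM) in f/f and 50 UMIs (511 CPM) in d/d, a ratio of 0.75 (0.28 to 1.19). The target Id3 had 223 and 16 UMIs and a ratio of -0.79 (-1.62 to -0.06), or -0.43 (-0.93 to 0.04) in the wider choice, while Id1 was at -0.15.

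Of 44 genes of steroid hormone action and stromal identity, 14 were counted, 0 were 2-fold higher and 5 were 2-fold lower, with a median of -0.51 in the selected cells and -0.53 in the Col6a4 and Adam12 cells. The receptor genes Pgr and Esr1 stayed under 2-fold, with Esr1 higher in d/d and Pgr too loosely bounded to place. Pgr, the progesterone receptor, had 265 CPM in f/f and 215 CPM in d/d, a log2 ratio of -0.31 (-1.03 to 0.34), and Esr1, the oestrogen receptor, 900 and 1185 CPM and a ratio of 0.40 (0.10 to 0.68). Hand2, a progesterone-dependent stromal factor, had 1509 and 1134 CPM, a ratio of -0.41 (-0.71 to -0.13). Gja1, the gap junction protein connexin 43, had 171 UMIs (217 CPM) and 5 UMIs (51.1 CPM), a ratio of -2.09 (-3.73 to -0.84). It was lower in the Col6a4 and Adam12 cells too, at -1.82. Zbtb16 was at -1.49 (-2.57 to -0.58), and Klf9, which interacts with the progesterone receptor, at -1.06 (-2.22 to -0.10). Of the Hox genes, which pattern the reproductive tract, Hoxa9 was at -1.49 (-2.51 to -0.63) and Hoxd11 at -1.06 (-1.72 to -0.46), while Hoxa10 was at -0.14 (-0.53 to 0.24), or -0.44 (-0.75 to -0.14) in the wider choice. Msx1, which is also among the epithelial markers, was at 0.69 (0.17 to 1.18), and at 0.20 (-0.24 to 0.61) in the wider choice.

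Of 43 measured basement membrane genes, 14 were counted, 1 was 2-fold higher and 2 were 2-fold lower, with a median of -0.37. The higher one was Lama5, and besides Col4a6 the lower one was Col18a1, the source of endostatin, with 450 UMIs (571 CPM) in f/f and 26 UMIs (266 CPM) in d/d, a log2 ratio of -1.10 (-1.73 to -0.53). The common chain Col4a1 was at 0.41 (0.05 to 0.75), or 0.21 (-0.05 to 0.46) in the wider choice without Col6a4, and Col4a2 at 0.00 (-0.52 to 0.47). Col4a5, the partner of Col4a6 in a collagen IV trimer, was at -0.39 (-1.56 to 0.59) on 9 d/d UMIs. In the Col6a4 and Adam12 cells it was lower in d/d, at -1.35 (-2.32 to -0.51). Of 60 interstitial matrix genes, 17 were counted, 1 was 2-fold higher and 1 was 2-fold lower, with a median of -0.12. Col6a3 had 150 and 306 CPM, a ratio of 1.03 (0.40 to 1.62), or 0.83 in the wider choice, whereas the other chains Col6a1, at 0.33 (0.08 to 0.56), and Col6a2, at 0.09 (-0.14 to 0.32), stayed under 2-fold. Fibronectin, Fn1, had 1612 and 960 CPM, a ratio of -0.75 (-1.06 to -0.44), and Spon1, a secreted matrix protein, was at -1.39 (-2.54 to -0.44), or -0.96 in the wider choice.

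Of 46 paracrine growth factor genes, 6 were counted, 0 were 2-fold higher and 1, Pdgfd, was 2-fold lower, with a median of -0.29. Vegfa, the vascular growth factor, was at 949 and 1205 CPM, a log2 ratio of 0.34 (0.05 to 0.63), Hgf at -0.62 (-1.87 to 0.41) and Igf1 at 0.27 (-0.31 to 0.80). Of the ErbB ligands, Nrg2 had 76 UMIs (96.4 CPM) in f/f and 22 UMIs (225 CPM) in d/d, a ratio of 1.22 (0.46 to 1.92), and 0.97 (0.37 to 1.56) in the Col6a4 and Adam12 cells. Nrg1, a ligand of the ERBB3 receptor, had 10 and 5 UMIs, 12.7 and 51.1 CPM, and a ratio of 2.01 (0.11 to 3.69). Both neuregulin genes were higher in d/d, on few UMIs and below the minimum used for the counts. Of 28 growth factor receptor genes, 3 were counted and 0 were past 2-fold. Egfr had 110 and 8 UMIs and a ratio of -0.77 (-2.02 to 0.26), which in the wider choice without Col6a4 was -1.17 (-2.15 to -0.32).

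Of 22 retinoid genes, 8 were counted, with 1 past 2-fold each way and a median of -0.01 (Aldh1a2 above and Rarres2 below, at -1.10 with an interval of -2.45 to -0.02). The receptor genes Rara (-0.34), Rarg (-0.35) and Rxrb (0.20) and the vitamin A transporter Stra6 (-0.20) had intervals that included 0. In the wider choice Stra6 was at -0.52 (-1.02 to -0.05). Of 46 transcription factors listed with Prdm1, 10 were counted, 0 were 2-fold higher and 1 was 2-fold lower, with a median of -0.33. That gene was Zeb2, at 320 and 133 CPM and -1.27 (-2.20 to -0.47). Tbx3 had 378 UMIs (480 CPM) in f/f and 82 UMIs (838 CPM) in d/d, a ratio of 0.80 (0.44 to 1.15), against -0.01 in the Col6a4 and Adam12 cells. In the wider choice without Col6a4 its ratio was 0.46 (0.17 to 0.75).

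**Figure D4:**
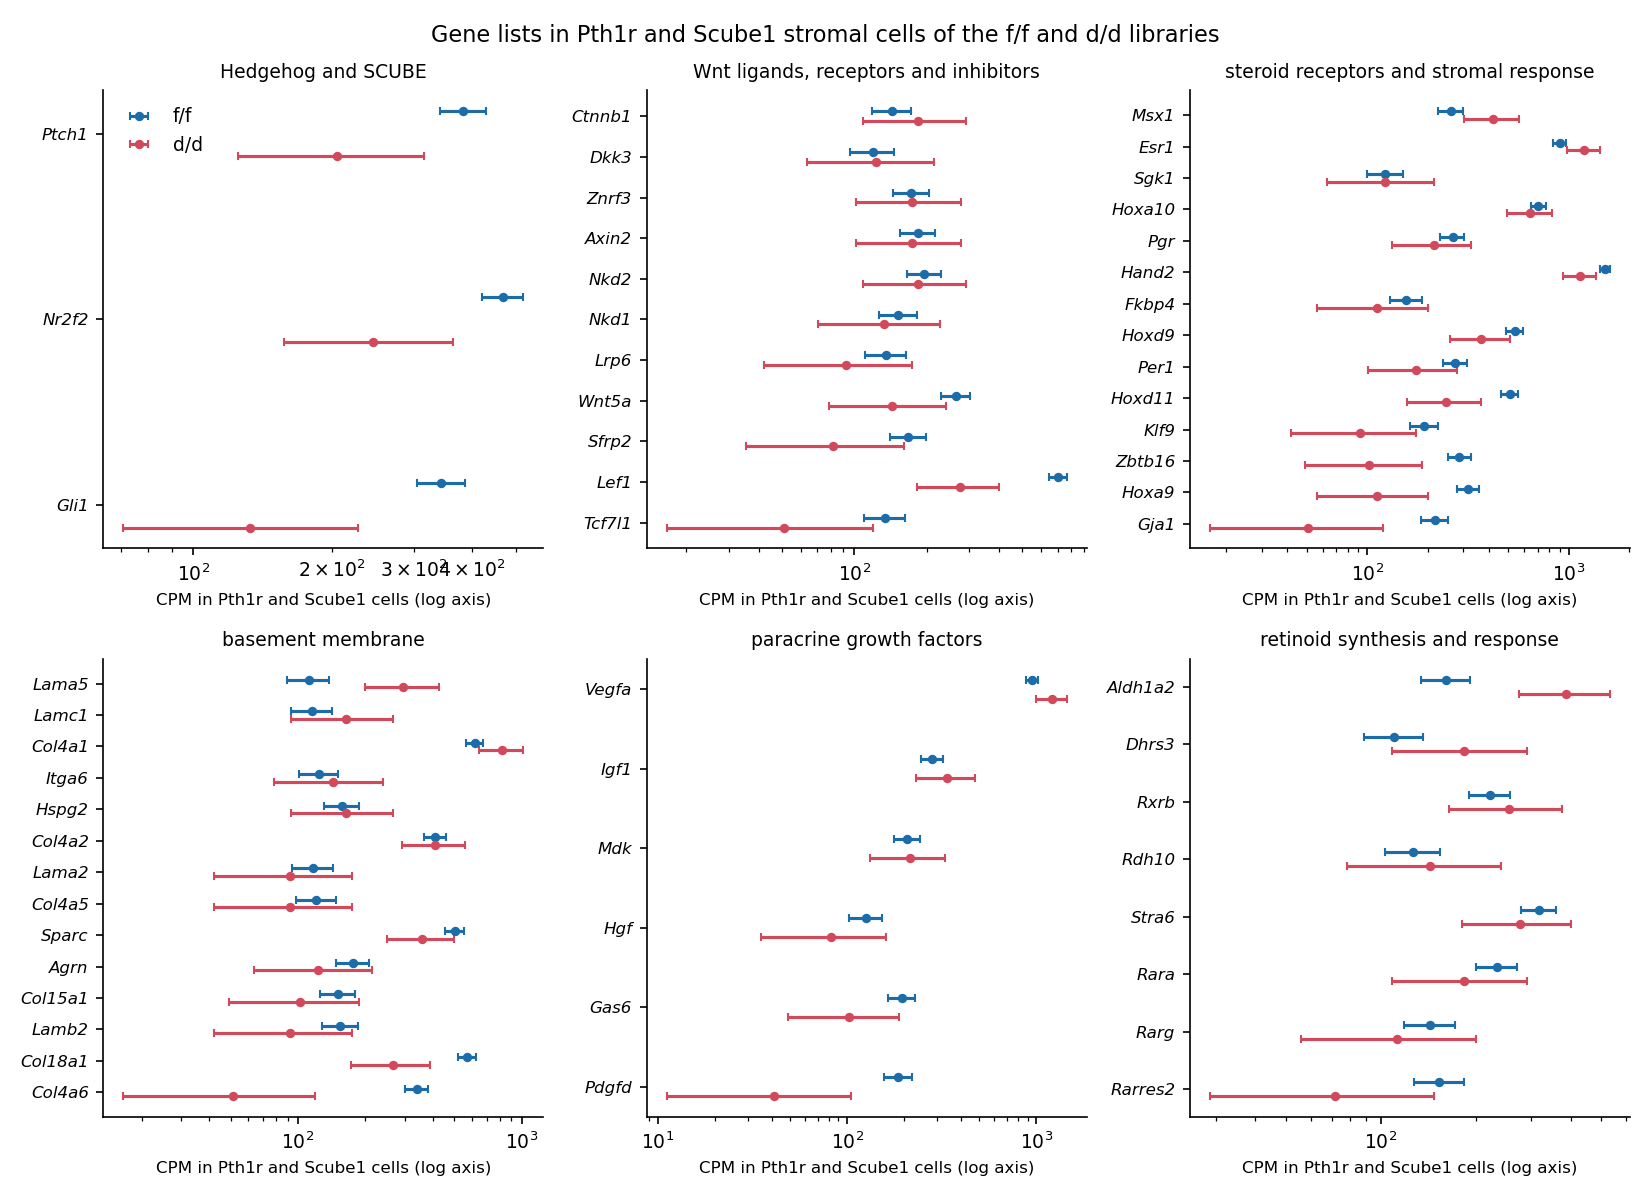
Levels (CPM, log axis) of counted members of 6 gene lists in the Pth1r and Scube1 cells of the f/f (blue) and d/d (red) libraries, ordered by their ratio; bars are 95% exact Poisson intervals. Red lies left of blue for all 3 Hedgehog genes drawn, while Lama5, Esr1 and Aldh1a2 lie to the right.

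Too few members of 2 further lists were counted for a median to mean much. Of 47 proliferation genes 1 was counted, Mcm7, at 0.11 (-0.51 to 0.68). With cells thinned to 500 UMIs, at least 1 UMI of the list was found in 37.1% of f/f cells (289 of 778, 33.7 to 40.7%) and 45.9% of d/d cells (45 of 98, 35.8 to 56.3%), and without thinning in 54.4% and 59.2%, with overlapping intervals each time. Of 31 immediate early and heat shock genes, which respond to tissue handling, 4 were counted and 0 were past 2-fold, with a median of -0.36 and Myc at -0.59 (-1.21 to -0.02). Of 30 chemokine and cytokine genes, Cxcl14 and the complement gene C3, at 0.60 (-0.24 to 1.36), were counted.

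The collagen genes of the stromal gate were themselves unequal between the libraries. Col1a1 had 1962 CPM in f/f and 2452 CPM in d/d, a log2 ratio of 0.32 (0.12 to 0.52), and Col1a2 0.29 (0.07 to 0.51). Col3a1 had 2656 and 1869 CPM, a ratio of -0.51 (-0.73 to -0.29), Hoxd10 was at -0.63 (-1.01 to -0.27) and Pdgfra, the receptor that marks fibroblasts, at -0.81 (-1.55 to -0.16). As these UMIs chose the stromal cells, the values are descriptions.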

How the data were processed

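Single-cell RNA was measured with the Chromium Flex workflow, in which probe pairs on fixed cells stand for transcripts. The authors deposited UMI counts per gene and called cell barcode, not normalized; per the file headers the matrices came from Cell Ranger 9.0.0. The submitters' processing notes name both mm10 and GRCm39; the files hold no coordinates. Kit names in the labels' protocols differ for the same libraries.

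UMIs were summed over the cells of a class and library in Python 3.11.15 (numpy 2.4.6, scipy 1.17.1, pandas 2.3.3) and expressed as CPM. Ratios have exact conditional binomial intervals, sums exact Poisson and shares exact Clopper-Pearson intervals, all at 95%; differences of shares combine both. Medians and counts used genes with at least 100 UMIs. The 12 gate genes and the genes of the stromal, epithelial, mesothelial, endothelial and immune sums were left out. A count of 0 was set to 3 counts. Ratios were tested on simulated data. No doublets were removed: Scrublet (scanpy 1.11.5) called 0 barcodes, so leaving out the highest 5% of scores was tried instead. edgeR 4.0.16 supplied the TMM alternative.

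Named genes were the 12 highest and 12 lowest ratios of each comparison, the gate genes, the ErbB genes, and from each list the highest, the lowest and up to 4 others by UMIs; a few further list members were chosen after their values were seen. Of these, 1 gene is not reported here. Cells, gene lists and rules were chosen with earlier results of these data known. Genes more than 5 times higher in a gated non-stromal class are marked as such. Probe numbers per gene differ, so levels are compared within a gene.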

Additional observations from a re-analysis of the deposited data

How the results depend on the processing

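The lower share in d/d kept its direction in all 22 alternatives, none of which left out both Pth1r and Col6a4. Over all gated stromal cells the Pth1r set without Pth1r and the Col6a4 set without Col6a4 had the same log2 ratio, -0.14. Whether cell numbers differed was not tested. Outside the counting interval of the share were -16.8 points without Pth1r in the gate, -9.62 without Col6a4 and -7.25 without Col6a4 after thinning. A lead of at least 3 UMIs gave -11.1, also outside. The numbers of genes past 2-fold followed the gene minimum: 511 higher and 1021 lower in d/d at 20 UMIs, 146 and 481 at 50, 7 and 27 at 200, and 1686 and 1077 with no minimum. Thinning to 500 UMIs left 7 and 32 of 521 genes, TMM scaling gave 24 higher and 165 lower, and a mean CPM of at least 100 gave 106 higher. Between the classes, 37 genes were higher and 46 lower in both libraries at 20 UMIs, 5 and 18 at 50, and 43 and 55 with no minimum; the lower count was 1 at 200 UMIs, 1 after thinning and 1 without Col6a4. With mitochondrial shares of at most 5% these counts were 1 and 2, with a gate sum of at least 2 they were 1 and 3, and without the highest doublet scores 1 gene was higher. Of 24 genes named for d/d over f/f, 23 kept their sign and 17 stayed past 2-fold in the 10 settings run for single genes. Of all 79 genes followed, 65 kept their sign. Lama5 changed sign, to -0.090, after thinning, which was a single random draw without an interval. Of 12 list medians, 6 kept their sign in the settings run for lists, among them those for Wnt (-0.45 to -0.08) and steroid genes (-0.58 to -0.08). No paired analysis was possible because there is 1 library per genotype, and none could be left out. Depth in d/d limits single genes to broad intervals.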
